A study of Mus musculus with 4 samples.

Results

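The genes for the 4 fibroblast growth factor (FGF) receptors with a kinase, Fgfr1, Fgfr2, Fgfr3 and Fgfr4, the kinase-less receptor gene Fgfrl1 and the ligand genes Fgf2, Fgf9 and Fgf18 were examined in ATAC-Seq peak lists of primary rib chondrocytes. In ATAC-Seq, the Tn5 transposase cuts and tags accessible DNA, so that sequenced fragments pile up over open chromatin. The 8 genes were chosen by name, out of 18209 protein-coding genes with a position in both mouse builds used. For each gene, the strongest peak with its summit within 1 kb of the 5' end was taken as its promoter peak, and all peaks with a summit in the gene body or within 50 kb of it were taken as its locus. The 8 loci held 86 of 76242 peaks in Cho Rep1, 182 of 148330 in Cho Rep2, 127 of 90971 in WT and 202 of 169591 in double-deletion cells.

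The series compared chondrocytes of newborn mouse rib cartilage. The 2 Cho libraries, Rep1 and Rep2, carry no genotype label. The WT and E160(delta/delta);E308(delta/delta) groups have 1 library each, so their comparison is between 2 libraries and has no replicate check. The deletion removes E160 and E308, elements upstream of the cartilage transcription factor gene Sox9, from the germline and hence from every cell. It was made with CRISPR/Cas9 in C57BL/6J embryos in successive steps, and wild-type and double-deletion animals came from crosses between heterozygotes. Mice were used regardless of sex. How many animals went into a library is not given in the sources used here.

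FGF ligands bind their receptors together with heparan sulfate, and the bound receptors pair and signal through adaptor proteins and kinase cascades. In cartilage, FGFR3 is known as a brake on growth plate proliferation, and activating changes in it cause achondroplasia. FGFR1 is known from hypertrophic chondrocytes and the perichondrium, FGFR2 from condensing mesenchyme and perichondrium, and FGF9 and FGF18 as ligands that reach the growth plate.

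The lists differ in how they were made, which touches every value below. Positions are NCBIM37 (mm9) in Cho Rep1, WT and the deletion library and GRCm38 (mm10) in Cho Rep2. The fold enrichment of a peak is its summit pileup (overlapping fragments at the summit) plus 1, over the background pileup plus 1. Cho Rep1 was called against 1 constant background, whereas the other lists used a local one. The most frequent background pileup was 1.37 in Cho Rep1, 1.96 in Cho Rep2, 0.361 in WT and 0.626 in double-deletion cells, so WT was the shallowest of the 3 lists with a local background. A scaled pileup, the summit pileup over that library value, is given where it changes the picture. At the deleted elements, WT had a fold enrichment of 15.4 at E308, from a pileup of 26, and 13.4 at E160, from a pileup of 31. These were the strongest WT peaks near the named distances from Sox9, with summits at -308.8 and -161.1 kb. In the deletion library no peak overlapped the one at E160. A weak peak, at 3.08 from a pileup of 4, overlapped the one at E308. Whether it lay within the deleted bases was not tested. The study reports no detectable peak at either element in double-deletion mice. Chondrocyte markers held a promoter peak for 4 of 9 genes in Cho Rep1 and for 8 of 9 in each other library, with Sox5 uncalled in all. Osteoblast and fibroblast markers held one for 5 or 6 of 6 genes, muscle markers for 0 or 1 of 3 (Myod1), endothelial markers for 1 of 3 (Kdr), epithelial markers for 0 or 1 of 3 (Epcam) and blood markers for 0 of 2.

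The promoters of Fgfr1, Fgfr2, Fgfr3, Fgfrl1, Fgf2 and Fgf9 held a peak in all 4 libraries. Fgfr4 lacked one in Cho Rep1 and Fgf18 lacked one in WT. The count was 7 of 8 genes in Cho Rep1, where 59.5% of all protein-coding promoters were called, 8 of 8 in Cho Rep2 (67.0% of all), 7 of 8 in WT (62.8%) and 8 of 8 in the deletion library (68.5%). The median fold enrichment of the called promoters among the 8 was 9.29 in Cho Rep1, 7.89 in Cho Rep2, 9.86 in WT and 7.96 in double-deletion cells. The medians over all called promoters were 12.3, 17.7, 12.7 and 12.5 in the same order, above those of the 8 genes in every library. By scaled pileup the medians came closer in WT, at 77.56 for the 8 genes against 80.33 for all. The same held in the deletion library, at 62.3 against 65.5. In Cho Rep1 they were 15.35 against 20.47, and in Cho Rep2 47.78 against 67.45.

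**Figure D1:**
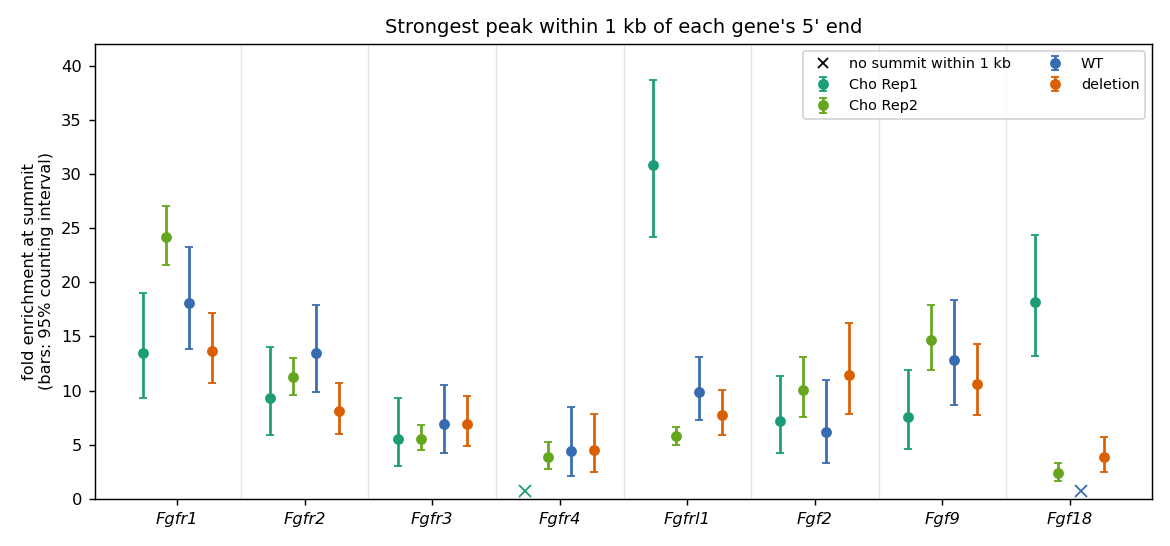
Fold enrichment of the strongest peak within 1 kb of the 5' end (vertical axis) for each gene (horizontal axis) and library (color), with 95% counting intervals and crosses where no summit lay in the window. Fgfr1 is highest in 3 libraries, whereas Fgfrl1 at 30.8 and Fgf18 at 18.2 lead only in Cho Rep1.

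Sequences are shown for promoters that differ in composition and, further on, for the strongest recurrent places and those where WT and the deletion library stood apart. Capitals mark letters of 7 motifs searched on both strands, which are SOX (ACAATGG or ACAAAGG), AP-1 (TGACTCA), RUNX (TGTGGTT), TEAD (GGAATG), NFY (CCAAT), the GC box (GGGCGG) and a core of the CTCF motif. The CTCF core was added after some of these sequences had been seen, and no motif contains another. A match is a description of the letters and does not show that a factor binds.

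Promoters are the 250 bases before the 5' end, on the strand of the gene, from RefSeq on GRCm38.p6, where 7 of the 8 genes had an entry (Fgfr1 is named only). The Fgfr2 and Fgf9 promoters held 44.0% and 44.8% G or C and matched none of the motifs, whereas those of Fgfr3, Fgfr4, Fgfrl1, Fgf2 and Fgf18 held 62.4% to 77.2% and matched the GC box. A GC box stood in 44.5% of the same 250 bases of 17899 genes, and the median G or C content was 56.4%. In both Fgfr2 and Fgf9 the promoter summits lay at least 455 bp from the 5' end in every library. Fgfr3, Fgfr2 and Fgf9 are shown to set a promoter with a CCAAT and GC boxes beside those without.
Fgfr3 promoter, chr5:33721474-33721723: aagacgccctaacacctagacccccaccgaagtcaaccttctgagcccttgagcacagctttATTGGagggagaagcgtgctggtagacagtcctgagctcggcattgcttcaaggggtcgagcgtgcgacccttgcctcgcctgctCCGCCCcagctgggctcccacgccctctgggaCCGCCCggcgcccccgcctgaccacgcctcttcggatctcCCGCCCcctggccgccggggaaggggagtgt
Fgfr2 promoter, chr7:130266809-130267058: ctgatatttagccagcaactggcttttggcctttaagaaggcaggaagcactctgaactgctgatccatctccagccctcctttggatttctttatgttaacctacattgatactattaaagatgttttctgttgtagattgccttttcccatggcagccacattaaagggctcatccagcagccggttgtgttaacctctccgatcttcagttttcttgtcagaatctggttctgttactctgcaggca
Fgf9 promoter, chr14:58072436-58072685: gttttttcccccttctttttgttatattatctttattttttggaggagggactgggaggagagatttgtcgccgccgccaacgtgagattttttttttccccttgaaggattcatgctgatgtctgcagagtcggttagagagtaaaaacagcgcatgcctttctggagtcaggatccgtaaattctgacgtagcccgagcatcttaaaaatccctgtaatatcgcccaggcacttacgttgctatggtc

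Fgfr1 (chromosome 8, plus strand, 5' end at 26629264 in NCBIM37) encodes a receptor expressed in many tissues. Its promoter peak reached a fold enrichment of 13.5 in Cho Rep1, 24.2 in Cho Rep2, 18.1 in WT and 13.7 in double-deletion cells, and a mean of 18.9 ± 7.55 (SD, n = 2) in Cho. The summits lay between -59 and -26 bp, and the peak was the strongest promoter peak of the 8 genes in Cho Rep2, WT and the deletion library. A second peak at 608 bp in WT, with a fold enrichment of 5.45, lay in the first kilobase of the gene. Within the gene, an intronic peak at 18.5 kb was called in every library, with a fold enrichment of 11.0, 17.3, 13.03 and 11.4 in the order above. This was the strongest WT peak of the locus more than 1 kb from an annotated 5' end, hereafter a distal peak. In the deletion library the strongest distal peak lay upstream at -12.8 kb, with a fold enrichment of 15.1 and a pileup of 25. The same place had 5.88 in WT, from a pileup of 7, and 11.5 in Cho Rep2, and Cho Rep1 had no peak there.

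Fgfr2 (chromosome 7, minus strand, 5' end at 137410322) encodes the receptor whose splice forms separate mesenchyme from epithelium. The promoter peak reached a fold enrichment of 9.29 in Cho Rep1, 11.2 in Cho Rep2, 13.4 in WT and 8.12 in double-deletion cells (Cho, 10.3 ± 1.37, SD, n = 2). Its summits lay at 455 to 497 bp inside the gene, and the WT summit was 51 bp from the 5' end of another annotated Fgfr2 transcript. The locus held no neighboring 5' end, so all of its 19, 49, 24 and 45 peaks (Cho Rep1, Cho Rep2, WT and deletion) lay in or around Fgfr2 itself. Of the 24 WT peaks, 14 overlapped a peak in each of the other libraries, and 10 of those 14 were distal. The upstream flank held 5 of these 10. The summit at -32.6 kb reached 16.1, 23.4, 11.8 and 14.6 in the same order, and the one at -6.74 kb had 8.87, 14.7, 12.2 and 15.0. Both stood above the Fgfr2 promoter peak in Cho Rep2 and in the deletion library. In Cho Rep1 the highest peak of the locus lay in the gene at 3.85 kb, with a fold enrichment of 32.5 and a pileup of 76, where Cho Rep2 had 4.97, WT 3.92 and the deletion library 4.64. That summit was 1019 bp from another annotated Fgfr2 5' end.

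Fgfr3 (chromosome 5, plus strand, 5' end at 34064373) encodes the growth plate receptor named above. Its promoter was the most even of those called in all 4 libraries, with a fold enrichment of 5.49 in Cho Rep1, 5.55 in Cho Rep2, 6.87 in WT and 6.91 in double-deletion cells. In Cho the mean was 5.52 ± 0.0430 (SD, n = 2), and every summit lay between 27 and 73 bp past the 5' end. By scaled pileup the libraries did not line up in this way, at 8.77, 47.5, 52.6 and 57.5. The locus held 5 peaks in Cho Rep1 and 14 in WT, but 30 in Cho Rep2 and 32 in the deletion library, the 2 longer lists. The strongest peak of the locus in every library lay at 61 kb, at the 5' end of Letm1, and is not counted as distal. The strongest distal peak in the deletion library was -5.00 kb from the 5' end, with a fold enrichment of 11.1, and the same place had 8.99 in WT and 15.3 in Cho Rep2. Cho Rep1 had no peak there. Only the place at -29.2 kb was distal and called in all 4 libraries, at 7.18, 10.08, 7.83 and 6.42. In Cho Rep2 its pileup of 449 was above the pileup of 93 at the promoter.

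Fgfr4 (chromosome 13, plus strand, 5' end at 55254179) encodes a receptor best known from liver and muscle. No summit lay within 1 kb in Cho Rep1, whose nearest summit was at 19.0 kb. The promoter peak reached a fold enrichment of 3.88 in Cho Rep2, 4.38 in WT, from a pileup of 7, and 4.53 in the deletion library, from a pileup of 11. The WT and deletion values came from peaks that do not overlap, at 230 and -159 bp. These promoter values were exceeded downstream. In both WT and double-deletion cells, the strongest distal peak of the locus, at 37.5 kb, with the WT summit 19429 bp from the nearest 5' end (Nsd1), had 16.5 in Cho Rep1, 25.4 in Cho Rep2, 14.0 in WT and 15.2 in double-deletion cells.

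Fgfrl1 (chromosome 5, plus strand, 5' end at 109123248) encodes the receptor-like protein that binds FGFs without a kinase domain. Its promoter peak reached a fold enrichment of 30.8 in Cho Rep1, 5.76 in Cho Rep2, 9.86 in WT and 7.79 in double-deletion cells. In Cho the mean of 18.3 had an SD of 17.7 (n = 2), the largest SD among the 8 genes. Relative to the mean, the SD was larger at Fgf18, at 11.2 with a mean of 10.25. At Fgfrl1 the local background differed between libraries as well. It was 29.2 in Cho Rep2, against the constant 1.37 in Cho Rep1, 3.67 in WT and 6.44 in double-deletion cells. By scaled pileup, which leaves the local background out, the same promoters had 52.6, 88.4, 124.7 and 91.1, and Cho Rep1 was then the lowest. The locus is crowded by Dgkq, Idua, Slc26a1 and Rnf212. Its strongest distal WT peak, at -16.4 kb in an intron of Idua, had 8.02, 35.2, 13.3 and 16.8 in the 4 libraries.

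Among the ligand genes, Fgf2 (chromosome 3, plus strand, 5' end at 37247575) encodes basic FGF, which cartilage matrix stores on heparan sulfate. Its promoter peak reached a fold enrichment of 7.18 in Cho Rep1, 10.01 in Cho Rep2, 6.21 in WT, from a pileup of 10, and 11.5 in the deletion library, from a pileup of 30. The summits lay between -328 and -296 bp. The introns held 6 distal places called in all 4 libraries. The one at 21.9 kb had 16.1, 25.5, 14.4 and 13.7, above the promoter in every library, and the one at 12.2 kb had 17.3, 19.4, 10.3 and 14.1, likewise above it.

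Fgf9 (chromosome 14, plus strand, 5' end at 58691523) encodes a ligand of the chondrogenic limb and skeleton. Its promoter peak reached a fold enrichment of 7.60 in Cho Rep1, 14.7 in Cho Rep2, 12.8 in WT and 10.6 in double-deletion cells, with summits between -548 and -493 bp. The rest of the locus was nearly empty, and no other gene starts in it. It held 6, 4, 5 and 10 peaks in the same order, and the 3 WT peaks called in all 4 libraries lay within 1 kb of an annotated Fgf9 5' end. A peak 81.2 kb downstream was called in Cho Rep2 at 10.8, in WT at 5.15, from a pileup of 6, and in the deletion library at 12.3, from a pileup of 23.

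Fgf18 (chromosome 11, minus strand, 5' end at 33047400) encodes a ligand made by the perichondrium and known for its action on FGFR3. Within 1 kb, Cho Rep1 had a fold enrichment of 18.2 at -513 bp, Cho Rep2 had 2.35 at 58 bp and the deletion library had 3.88 at -371 bp. WT had no summit in that window. Its nearest summits were just outside it, at 1021 bp with a fold enrichment of 6.62 and at -1179 bp with 7.96. In Cho Rep2 the peak overlapping the latter, at -1121 bp, had 14.7, and in the deletion library, at -1236 bp, it had 6.75. Both exceeded the value within 1 kb of the same library, and the Cho Rep1 peak at -513 bp overlapped the WT peak at -1179 bp. The WT call at Fgf18 thus turned on the width of the window and on the 5' end used. With a window of 2 kb, or with 1 kb around any annotated 5' end, all 8 genes were called in WT. Inside the gene, an intronic place at 24.4 kb was called in every library, at 10.1, 17.4, 9.27 and 11.8. Past its 3' end a summit at 76.6 kb had 5.07, 30.7, 11.7 and 16.6.

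To show what lies under the strongest recurrent places, the next set is the 50 bases on each side of the WT summit (NCBIM37, on the strand of the gene) at the strongest distal place of each locus that was called in all 4 libraries. Fgf9 had no such place. The windows of Fgfr1, Fgfr2, Fgfr3, Fgfrl1 and Fgf2 matched none of the 7 motifs, whereas that of Fgfr4 held a CCAAT and that of Fgf18 a TEAD match.
Fgfr1, 18.54 kb, chr8:26647753-26647853: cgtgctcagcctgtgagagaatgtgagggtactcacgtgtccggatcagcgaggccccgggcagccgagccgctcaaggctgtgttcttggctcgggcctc
Fgfr2, -32.6 kb, chr7:137442873-137442973: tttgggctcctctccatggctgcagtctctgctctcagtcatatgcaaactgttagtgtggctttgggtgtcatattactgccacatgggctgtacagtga
Fgfr3, -29.22 kb, chr5:34035107-34035207: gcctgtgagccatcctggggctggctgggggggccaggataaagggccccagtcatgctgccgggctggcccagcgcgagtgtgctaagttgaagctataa
Fgfr4, 37.53 kb, chr13:55291664-55291764: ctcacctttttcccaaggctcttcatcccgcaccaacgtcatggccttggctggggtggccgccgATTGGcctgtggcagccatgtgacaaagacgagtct
Fgfrl1, -16.39 kb, chr5:109106803-109106903: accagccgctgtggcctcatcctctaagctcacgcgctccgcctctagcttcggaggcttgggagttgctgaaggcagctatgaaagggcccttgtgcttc
Fgf2, 21.92 kb, chr3:37269442-37269542: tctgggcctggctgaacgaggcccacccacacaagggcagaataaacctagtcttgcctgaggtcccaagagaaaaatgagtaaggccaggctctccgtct
Fgf18, 76.62 kb, chr11:32970725-32970825: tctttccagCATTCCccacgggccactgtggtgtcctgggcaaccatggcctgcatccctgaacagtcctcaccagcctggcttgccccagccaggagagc

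The order of the 8 promoters was read against 95% Poisson intervals of the summit pileup, which cover counting error only. In WT the order ran from Fgfr1 through Fgfr2, Fgf9, Fgfrl1, Fgfr3 and Fgf2 to Fgfr4, and the intervals of all 6 neighboring pairs overlapped. All 7 neighboring pairs overlapped in the deletion library, where Fgf2 stood after Fgfr1, and all 6 in Cho Rep1. In Cho Rep2, Fgfr1 stood apart from Fgf9 (21.6 to 27.0 against 11.9 to 17.9), and Fgf2 stood apart from Fgfrl1 (7.53 to 13.1 against 4.94 to 6.68). The other 5 pairs there overlapped.

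The loci differed in how many peaks they held. Per 100 kb, the median of the 8 loci was 7.27 in Cho Rep1, 15.2 in Cho Rep2, 12.5 in WT and 17.9 in double-deletion cells, beside 4.42, 9.04, 5.84 and 10.5 over all protein-coding loci. Fgf9 was the exception, at 4.296, 2.85, 3.58 and 7.16 peaks per 100 kb, under the median of all loci in each library. Fgfr3 was the densest of the 8 in Cho Rep2 at 26.0 and in the deletion library at 27.7, but stood at 4.34 in Cho Rep1, whose densest locus was Fgfrl1 at 12.4. In WT, where 7 of the loci lay between 9.23 and 14.0, Fgfr1 was the densest. Of the WT peaks in the 8 loci, 90 of 127 were distal. The summits of these 90 lay outside genes in 50 cases, in introns in 38 and in exons in 2. The remaining 37 sat within 1 kb of a 5' end of the 8 genes or of neighbors such as Letm1, Nsd1, Dgkq, Idua, Cetn4, Spata5 and Npm1.

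**Figure D2:**
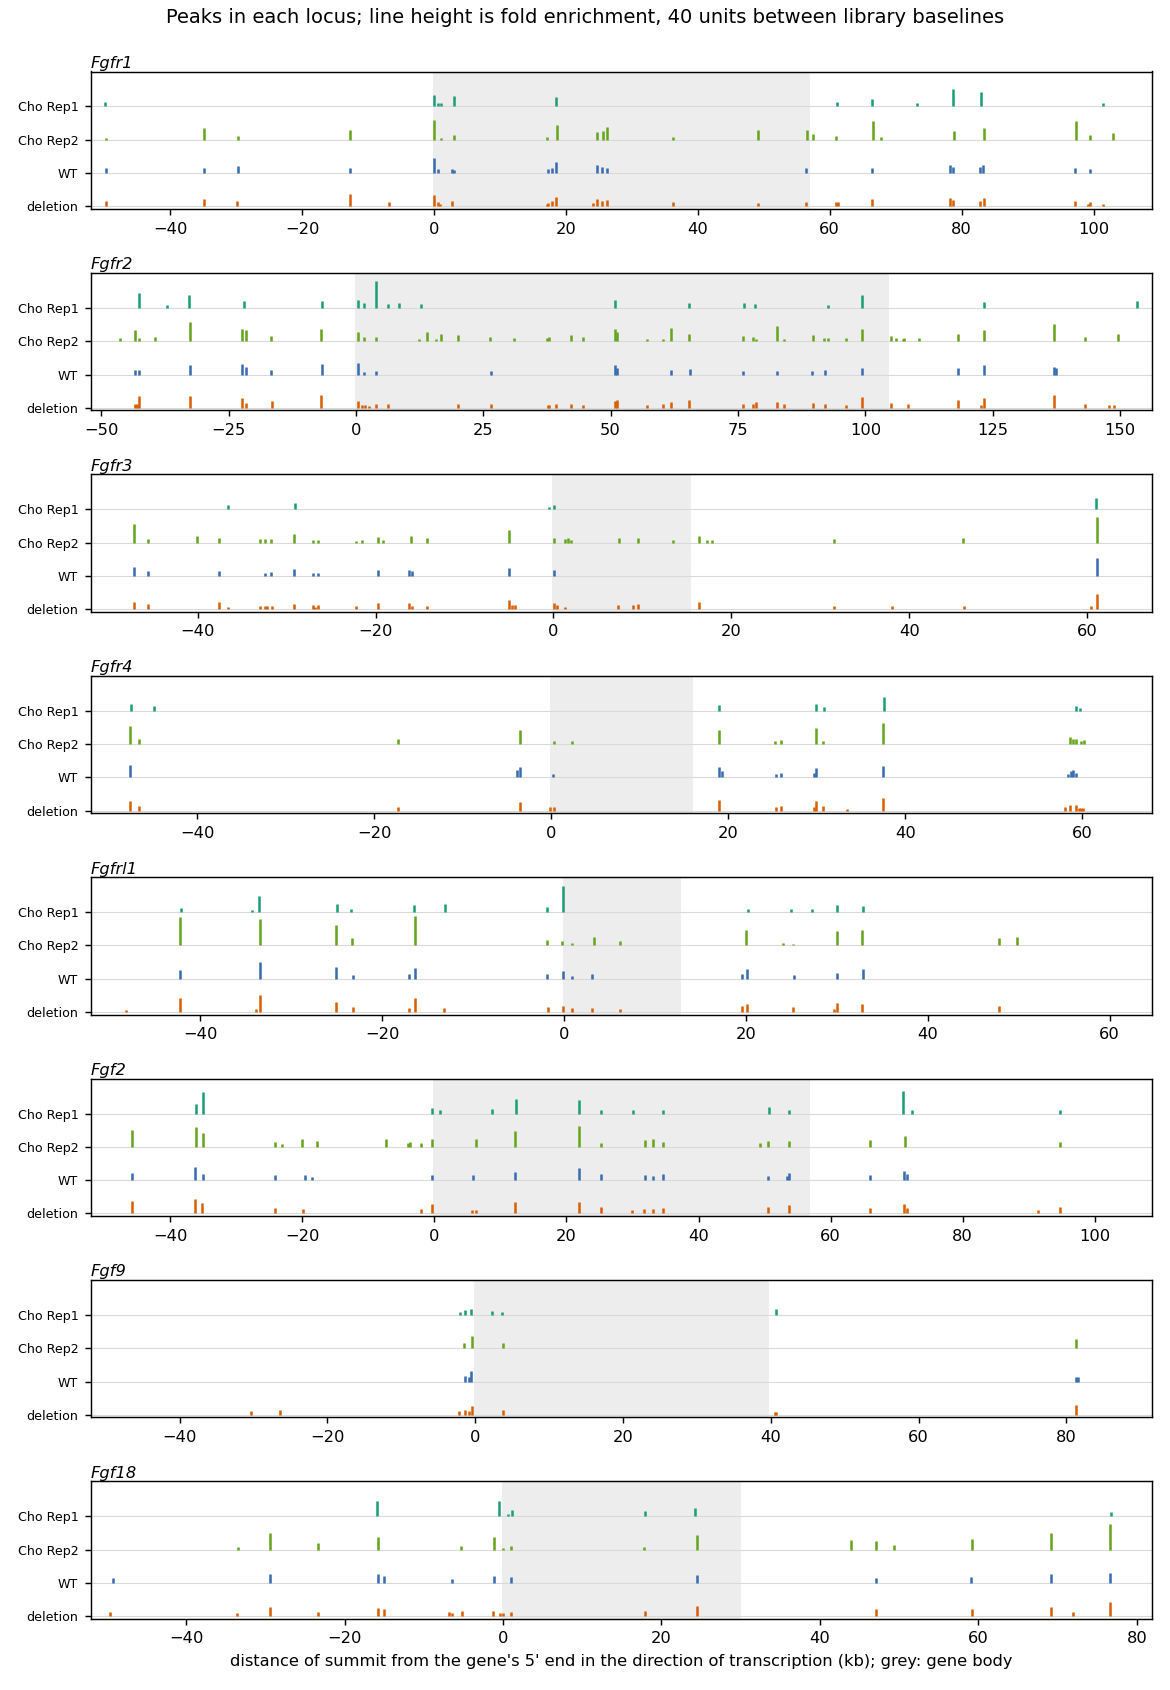
Peaks of the 8 loci by distance of the summit from the 5' end (horizontal axis, kb) in 4 tracks per gene, 1 per library, with line height as fold enrichment and the gene body in grey. Called in all 4 libraries were 14 of 24 WT peaks at Fgfr2, 11 of 20 at Fgf2 and 12 of 15 at Fgfrl1 (57.8% over all loci). The body of Fgf9 is nearly empty.

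**Figure D3:**
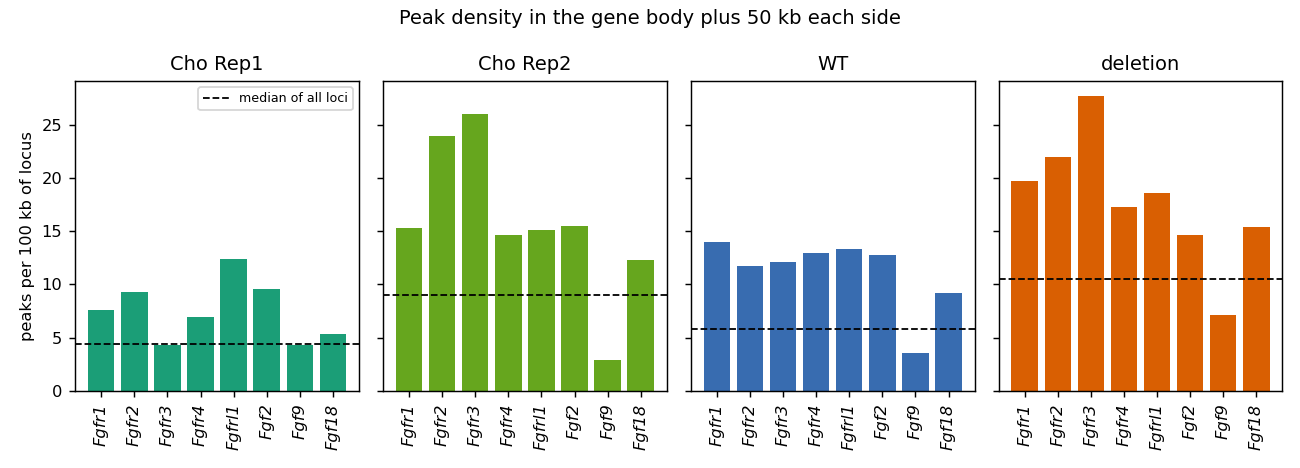
Peaks per 100 kb (vertical axis) in each locus (horizontal axis), 1 panel per library, with the median of all protein-coding loci as a dashed line. Fgf9 lies under that line in all 4 panels and Fgfr3 moves from 4.34 in Cho Rep1 to 27.7 in the deletion library.

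A Cho Rep2 peak at the same distance from the 5' end overlapped 122 of the 127 WT peaks (96.1%, against 88.1% over the loci of all protein-coding genes). That match holds only as far as distances are equal in the 2 builds. A Cho Rep1 peak overlapped 71 (55.9%, where 57.7% of all WT peaks were overlapped by Cho Rep1), and 70 were overlapped in all 3 other libraries, where 57.8% were over all loci. Of those 70, 39 were distal. The share of WT peaks found in Cho Rep1 was lowest at Fgfr3, with 3 of 14, and highest at Fgfrl1, with 13 of 15.

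The comparison of WT with the deletion library asked whether accessibility at these genes moved with the loss of E160 and E308. In bulk libraries, fewer cells with an open site and less opening per cell cannot be told apart. At promoters, 7 of the 8 genes were called in both lists, and 0 of the 7 changed by 2-fold in either direction by fold enrichment. Over all 11394 promoters called in both, 1.08% were at least 2-fold higher in the deletion library and 0.0965% at least 2-fold lower. By scaled pileup the count among the 7 was again 0 in both directions, where 0.325% of all promoters were higher and 0.255% lower. The median log2 ratio was -0.27 over the 7 genes and 0.01 over all promoters. On the scaled pileup it was -0.21 and -0.26.

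The individual ratios, as log2 of deletion over WT fold enrichment, were -0.41 for Fgfr1, -0.73 for Fgfr2, -0.34 for Fgfrl1 and -0.27 for Fgf9. They were 0.01 for Fgfr3, 0.05 for Fgfr4 and 0.89 for Fgf2. Among all promoters called in both lists, the percentiles were 0.184 for Fgfr2, 2.63 for Fgfr1, 5.17 for Fgfrl1 and 9.70 for Fgf9. Those of Fgfr3, Fgfr4 and Fgf2 were 49.05, 55.3 and 98.2. The sign of the ratio was not the same on every scale for Fgfr3, Fgfr4, Fgfrl1 and Fgf9. For Fgfr2 the pileups were 45 in WT and 48 in double-deletion cells, and the log2 ratio of scaled pileups was -0.70, with a 95% exact conditional interval from -1.32 to -0.08. For Fgfr1 the pileups were 59 and 71, and the scaled ratio was -0.53 (-1.05 to -0.0038). Fgf2 had pileups of 10 and 30, and its scaled ratio of 0.79 had an interval from -0.28 to 1.99. The interval included 0 for Fgf2, Fgfr3, Fgfr4, Fgfrl1 and Fgf9. Those of Fgfr1 and Fgfr2 lay below 0 but included -0.26, the median scaled ratio over all promoters. These intervals cover counting error in 2 libraries and not the variation between animals.

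Over the whole loci, 124 of the 127 WT peaks had an overlapping deletion peak, with a median log2 ratio of 0.07 against 0.28 for all 87274 shared peaks. At least 2-fold higher in the deletion library were 5 of the 124 (4.03%, against 7.79% of all shared peaks), and at least 2-fold lower were 0 (against 0.071%). The 5 were the places at -12.8 kb of Fgfr1, at -42.6 and 137.4 kb of Fgfr2, and 2 WT peaks at 81.2 and 81.6 kb of Fgf9 that a single deletion peak covered. The deletion peak set against 137.4 kb of Fgfr2 also covered a stronger WT peak at 137.0 kb, where the log2 ratio was 0.87. At -42.6 kb of Fgfr2, WT had a fold enrichment of 5.23 from a pileup of 7 and the deletion library 14.4 from a pileup of 28, a log2 ratio of 1.46. The Cho replicates stood on either side there, at 18.2 and 4.12. The WT pileups at the 5 places were 6 to 10, and the interval of the scaled ratio included 0 at each. The largest falls were the Fgfr2 promoter, the place at -21.6 kb of Fgfr2 with a log2 ratio of -0.66, and an intronic place at 5.80 kb of Fgf2 with -0.61. The interval of the scaled ratio lay below 0 at 3 of the 124 (1.33% of all shared peaks), which were the promoters of Fgfr1, Fgfr2 and the neighbor Letm1, and above 0 at 0 of the 124 (1.99% of all). Each of these 3 intervals included -0.26, the median scaled ratio of all promoters called in both lists.

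**Figure D4:**
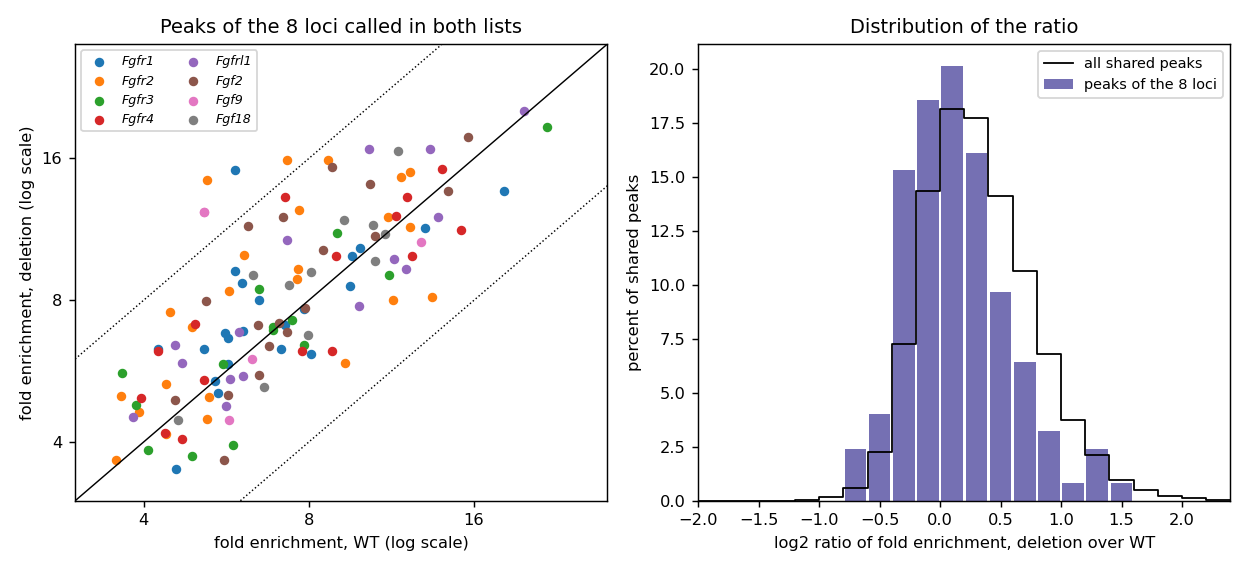
Left, fold enrichment in WT against the deletion library (log axes) for the 124 peaks of the 8 loci called in both, with lines at equality and at 2-fold. Right, the distribution of the log2 ratio for those peaks (bars) and for all shared peaks (line), in percent; 5 of the 124 lie at least 2-fold higher and 0 at least 2-fold lower.

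Peaks without a partner were mostly in the deeper list. In WT, 3 of 127 locus peaks had no overlapping deletion peak (2.36%, 95% exact binomial interval 0.490% to 6.75%), beside 4.06% of all WT peaks. In the deletion library, 84 of 202 had no overlapping WT peak (41.6%, 34.7% to 48.7%), beside 50.6% of all its peaks. The 3 WT peaks were 2 at Fgf2 and 1 at Fgf18. The strongest of them, at -49.2 kb of Fgf18, had a fold enrichment of 6.31 from a pileup of 9 and no counterpart in either Cho list. The 84 deletion peaks had a median fold enrichment of 4.23, against 7.69 for those with a WT partner, and 64 of the 84 overlapped a peak in a Cho list, where 65.7% of such peaks did over all loci. The strongest distal ones were at 16.4 kb, just past the 3' end of Fgfr3, with 8.43 from a pileup of 22, and at 94.7 kb of Fgf2, in an intron of Spata5, with 7.38 from a pileup of 11. The first was also called in Cho Rep2 and the second in both Cho replicates.

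The last set, windows of the same width and build centred on the WT summit or, for peaks without a WT partner, on the deletion summit, holds places where WT and the deletion library stood apart. They are the 3 WT places of largest log2 ratio, in Fgfr1, Fgfr2 and Fgf9, and the strongest distal deletion peaks without a WT partner at 5 loci. AP-1 letters stood in the windows at 81.6 kb of Fgf9, at 78.5 kb of Fgfr2 and at 17.9 kb of Fgf18, TEAD letters in both windows of Fgfr2, and CTCF letters in that of Fgfr3. Those of Fgfr1, of Fgf2 and at -26.4 kb of Fgf9 held none of the motifs. The window of the other Fgf9 place, at 81.2 kb, also held none, nor did that at the summit of the deletion peak covering both. Of the strongest unpartnered deletion peaks not shown, those at Fgfr4 and Fgfrl1 held AP-1 letters and that at Fgfr1 a CCAAT.
Fgfr2, -42.56 kb, chr7:137452832-137452932: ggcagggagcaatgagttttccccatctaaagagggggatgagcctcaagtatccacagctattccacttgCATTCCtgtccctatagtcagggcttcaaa
Fgfr1, -12.8 kb, chr8:26616416-26616516: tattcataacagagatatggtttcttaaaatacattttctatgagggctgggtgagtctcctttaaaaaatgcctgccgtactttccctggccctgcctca
Fgf9, 81.59 kb, chr14:58773061-58773161: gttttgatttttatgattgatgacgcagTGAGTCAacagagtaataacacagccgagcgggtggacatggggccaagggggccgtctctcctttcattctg
Fgfr2, 78.51 kb, chr7:137331764-137331864: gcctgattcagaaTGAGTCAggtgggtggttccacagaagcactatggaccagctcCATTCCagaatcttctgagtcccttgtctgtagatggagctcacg
Fgfr3, 16.38 kb, chr5:34080706-34080806: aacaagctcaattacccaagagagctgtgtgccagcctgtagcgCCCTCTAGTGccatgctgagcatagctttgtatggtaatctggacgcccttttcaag
Fgf2, 94.67 kb, chr3:37342196-37342296: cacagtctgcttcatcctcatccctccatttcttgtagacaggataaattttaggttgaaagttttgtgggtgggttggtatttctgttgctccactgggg
Fgf9, -26.43 kb, chr14:58665042-58665142: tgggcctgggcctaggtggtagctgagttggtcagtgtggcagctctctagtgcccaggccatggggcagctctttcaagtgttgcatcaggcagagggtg
Fgf18, 17.92 kb, chr11:33029429-33029529: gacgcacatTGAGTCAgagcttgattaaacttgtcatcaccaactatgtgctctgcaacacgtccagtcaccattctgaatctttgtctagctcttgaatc

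Over all distal peaks of the loci, the 95% exact binomial interval of each of the 7 motifs included the share among all distal peaks of the same library, in WT and in the deletion library, with 50 bases searched on each side. With 100 bases, AP-1 in distal deletion peaks was the exception, at 12.5% (7.58% to 19.0%) against 20.7%. Within 50 bases of the summit, AP-1 letters were in 6 of 90 distal WT peaks (6.67%, 2.49% to 14.0%) against 13.6% of all distal WT peaks, and in 15 of 144 distal deletion peaks (10.4%, 5.95% to 16.6%) against 15.9%. Distal deletion peaks without a WT partner held AP-1 letters in 6 of 61 cases (9.84%), against 16.5% of all such peaks. SOX letters were in 1 of 90 WT peaks (1.11%, against 2.30%) and 1 of 144 deletion peaks (0.694%, against 2.29%). TEAD letters were in 21 of 144 deletion peaks (14.6%, 9.26% to 21.4%, against 12.5%) and CTCF letters in 7 of 144 (4.86%, 1.98% to 9.76%, against 3.20%). TEAD letters were in 12 of the 61 without a WT partner (19.7%, 10.6% to 31.8%, against 12.3%).

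The rest of the pathway was read from a list of 72 genes, of which 70 had a position (not Hras and Spry3). Promoter peaks were called for 50 of the 70 in Cho Rep1, 60 in Cho Rep2, 56 in WT and 60 in double-deletion cells, beside 59.5%, 67.0%, 62.8% and 68.5% of all promoters, and 49 were called in all 4. The median log2 ratio of deletion over WT was -0.02 over the 56 called in both, beside 0.01 for all promoters, and 0 of the 56 were 2-fold higher or lower (1.08% and 0.0965% of all promoters). Of the other Fgf genes listed, 6, 12, 10 and 13 of 19 were called in the 4 libraries, with median fold enrichments of 5.49, 8.12, 5.78 and 6.76. Fgf4, Fgf6, Fgf13, Fgf14 and Fgf17 were called in none. The 16 intracellular relay genes were called in every library, with medians of 11.8, 18.6, 13.5 and 12.96. The 16 genes of heparan sulfate, its core proteins and enzymes, were called in 14, 16, 16 and 16 cases. Of 9 genes listed under feedback 8 were called in each library, Spred3 being the exception, and of 5 transcriptional outputs 3, 5, 4 and 5 were called.

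Among the 5 pathway promoters of highest mean fold enrichment over the 4 libraries were Flrt3, for a membrane protein that binds FGF receptors, at 29.6, Dusp6, for a phosphatase that dampens FGF signaling, at 24.0, the syndecan gene Sdc2 at 23.1, and Etv5, for a transcription factor induced by FGF, at 22.1. Dusp6 had 48.6 in Cho Rep1, 22.9 in Cho Rep2, 13.4 in WT and 11.2 in double-deletion cells. Etv5 had 40.5, 22.9, 12.7 and 12.2. Both means rest largely on Cho Rep1, the list with a constant background, and in WT both promoters were below that of Etv4, a related output gene, at 18.6. The co-receptor gene Kl, for Klotho, was called in all 4 libraries at 4.65, 12.2, 8.09 and 9.22, while Klb was called in none.

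**Figure D5:**
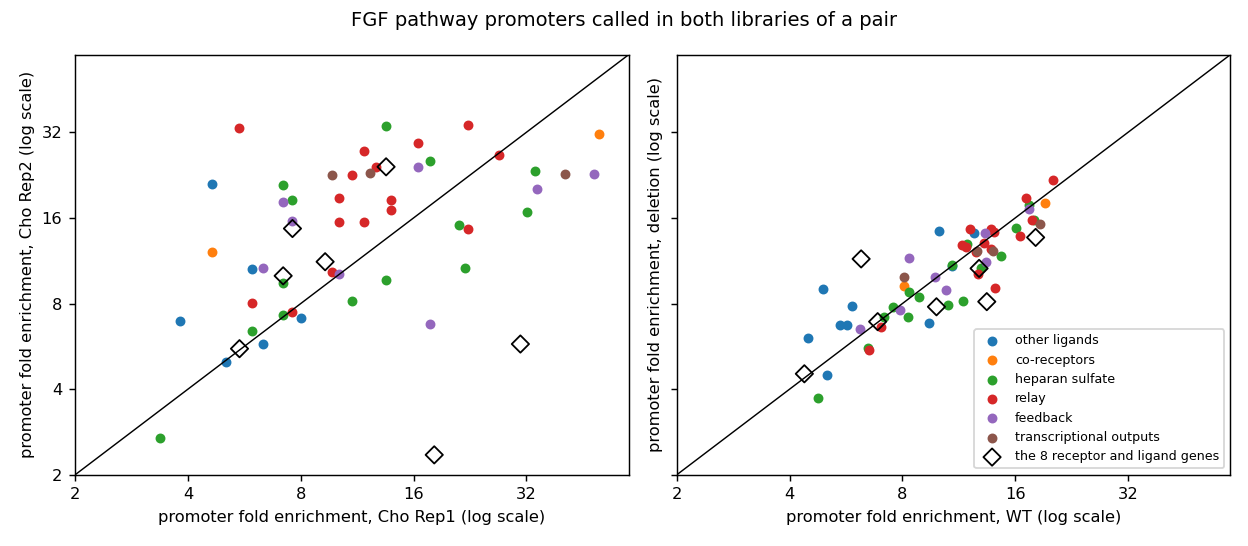
Promoter fold enrichment of pathway genes (colored points by group) and of the 8 receptor and ligand genes (diamonds) in the Cho replicates (left) and in WT and the deletion library (right), on log axes with the line of equality. Points scatter more widely on the left, where Fgfrl1 has 30.8 and 5.76, than on the right.

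For each of the 6 genes called in all 4 libraries, the 2 promoters of most similar values were sought among 10264 promoters called in all 4, by the Euclidean distance of log2 fold enrichment. Nearest to Fgfr1 were Nme1 (0.07) and Stradb (0.15), to Fgfr2 Ewsr1 and Rhbdd3 (0.24 each, with the same values in every library), and to Fgfr3 Dcaf5 and Tmem163 (0.18 each). Nearest to Fgfrl1 were Irx5 (0.37) and Ttyh2 (0.46), to Fgf2 Onecut1 (0.13) and Prickle3 (0.14), and to Fgf9 Cbr3 (0.14) and Wdr5 (0.15). The distance spans 4 libraries and says only that these promoters had like values.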

How the data were processed

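Open chromatin was measured by ATAC-Seq in 4 libraries of rib chondrocytes. Reads were trimmed with fastp and aligned with Bowtie2 2.4.4, duplicates were removed with Picard, for which the labels (2.20.7) and the methods name different versions, SAMtools 1.9 was used per the labels, and peaks were called per library with MACS2 2.2.4 at a q-value of 0.05, per the labels and the study's methods. The deposited peak lists give a score, the fold enrichment ratio at the summit, and the -log10 p-value and -log10 q-value that the authors' peak caller wrote. Cho Rep2 was read on GRCm38, since its positions fit that build, although the labels name mm9.

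Rows of the same interval were reduced to the highest fold enrichment. Genes were placed by matching RefSeq promoter sequence to the genome (14439 of 18209) and otherwise by the annotated 5' end. Summit pileups were solved from the fold enrichment and the p-value, within 0.01 on -log10 p, for at least 99.997% of peaks. Peaks overlapped if they shared 1 bp. Read depth is not given in these lists, so intervals (Poisson, exact binomial or exact conditional, 95%) rest on pileups or peak numbers and cover counting error only. With 1 library for WT and 1 for the deletion, no p-value was computed, and the methods call the ATAC-Seq replicates biological, without saying whether they were separate animals.

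The members and lists were chosen with earlier results of these data known. Named peaks were, per locus, the strongest distal peak and the strongest unpartnered distal peak in WT and the deletion library, the 3 shared peaks of largest log2 ratio in each direction, the 5 pathway promoters of highest mean (1 is not reported here) and the 2 promoters most like each member. Places set out beyond this rule were chosen after their values were seen, as were the CTCF letters. Alternatives covered the promoter window, the 5' end, flank, peak strength, overlap, scaling, motif window and numbers of peaks. Scripts used Python 3.11.15, pandas 2.3.3, scipy 1.17.1 and pysam 0.24.0, and were tested on simulated data.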

Additional observations from a re-analysis of the deposited data

How the results depend on the processing

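No paired analysis was possible because each genotype compared was sequenced as 1 library. The log2 ratio of 4 promoters, each under 2-fold, changed sign: Fgfr4 to -0.14 by scaled pileup, Fgfr3 to -0.0065 after subtracting the median of all promoters, and Fgfrl1 to 0.06 and Fgf9 to 0.26 by -log10 q. Of the main results, 63 of 86 alternative values stayed within their limits. The cause was not tested for the others except where the alternative itself removes peaks or widens a window. Averaged over the Cho replicates, the median promoter fold enrichment of those called among the 8 genes was 8.59. A promoter window of 2 kb gave 9.95, and leaving out a Cho replicate gave 7.89 or 9.29. By -log10 q, 1 promoter (Fgf2) was at least 2-fold higher in the deletion library, where 11.9% of all promoters were. Flanks of 20 kb left 121 locus peaks in Cho Rep2, 80 in WT and 130 in the deletion library. Of 78 shared peaks there, 1 was at least 2-fold higher (7.79% of all). A -log10 q of at least 5 left 57 peaks in Cho Rep1. Equal numbers of strongest peaks per library left 105 in Cho Rep2, 112 in WT and 99 in the deletion library. Flanks of 100 kb gave the 8 loci a median of 6.06, 10.9, 9.18 and 12.1 peaks per 100 kb. Over all loci it was 4.36, 9.02, 5.77 and 10.4 (Cho Rep1, Cho Rep2, WT and deletion). With 20 kb the medians were 8.41, 17.1, 12.6 and 20.15, beside 4.44, 9.07, 5.94 and 10.6. After subtracting the median of all shared peaks, 2 of the 124 were at least 2-fold higher (2.98% of all) and 1 lower (0.387%). By scaled pileup 4 were higher (3.6% of all) and 1 lower (1.42%). WT locus peaks without a deletion partner rose to 18.1% with equal numbers (17.3% of all peaks). Deletion peaks without a WT partner were 51.5% with an overlap of at least 50% (61.1% of all), 34.3% at a -log10 q of at least 5 (46.7%) and 14.8% with equal numbers (21.4%). With the wider motif window, WT shares were 14.4% for AP-1 (18.6% of all distal peaks), 23.3% for TEAD (20.3%), 20% for NFY (23.1%) and 10% for CTCF (5.42%), and deletion shares were 4.86% for SOX (5.08%), 22.9% for TEAD (20.2%), 21.5% for NFY (23.4%) and 12.5% for AP-1 (20.7%). The low pileups of WT, 6 to 10 at the places that were 2-fold higher, limit what the comparison can show.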
